A study of Mus musculus with 8 samples.

Results

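The 10 genes Mcm2, Mcm3, Mcm4, Mcm5, Mcm6, Mcm7, Pcna, Rrm1, Rrm2 and Tyms code for proteins that copy DNA or make its building blocks, and their RNA was measured in mouse liver. They were taken by name: every array probe annotated to one of these genes was collected (15 probes). The brightest probe stood for its gene, and the others, where present, were kept as a check. Mcm2, Mcm5, Mcm6, Mcm7, Pcna and Rrm2 had a single probe each. The second probes of Mcm4 and Rrm1 were well above background on no array. Only Mcm3 and Tyms could therefore be checked by a further probe. The calls of Mcm2, Mcm5, Mcm6, Rrm1 and Rrm2 rest on a single probe each. All 10 genes were found among the 17049 genes tested, and all 10 probes were well above background on all 8 arrays, so the filter on dim probes removed no member. Liver total RNA was hybridised to 8 one-colour arrays, 2 in each of 4 groups: KKAy at 11 weeks of age, KKAy at 4 weeks, C57BL/6J at 11 weeks and C57BL/6J at 4 weeks. Mice of the KKAy strain carry the yellow agouti allele and become obese and diabetic, and the labels give its disease state as diabetes at both ages. C57BL/6J is a standard inbred strain, labelled normal, so the strains differ across their whole genomes and not at the agouti locus alone. Whether each probe reads the RNA of both strains equally well was not tested. Mice of every group ate standard chow and were fasted overnight before sampling. The sex of the animals was not given in the sources used here.

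Before a cell divides it copies its genome once, in S phase. The 6 MCM proteins Mcm2 to Mcm7 form a ring that is loaded onto replication origins and, once activated, unwinds the double helix. PCNA is the sliding clamp that holds DNA polymerases on the template. Ribonucleotide reductase, made of the large subunit Rrm1 and the small subunit Rrm2, turns ribonucleotides into deoxyribonucleotides, and thymidylate synthase (Tyms) makes the thymidine nucleotide. Many of these genes are switched on by E2F transcription factors as cells enter the cycle. The liver of a growing young mouse contains dividing hepatocytes, whereas most hepatocytes of an adult liver are at rest.

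Signal is given as log2 of the processed fluorescence relative to the 75th percentile of the same array, so that 0 is the signal of that percentile and 1 unit is a doubling. That percentile was at 476.1 to 1192 units of fluorescence, and 56.3% to 66.7% of the spots on an array were well above background. Array number limits the precision: with 2 arrays a group, the 4 groups share 1 estimate of the spread. Since the labels number the arrays without naming the animals behind them, a p-value speaks only of the spread among these 8 samples, and that spread may be technical. Slide 2 held the 11-week arrays and slide 1 the 4-week arrays, so an effect of age and one of slide cannot be told apart. On both slides KKAy took positions 3 and 4 and C57BL/6J positions 1 and 2. Replicate 1 was always at position 1 or 3 and replicate 2 at position 2 or 4. All 10 hepatocyte markers tested, among them albumin, were well above background on all 8 arrays. In bulk liver RNA, fewer cells of a type and less RNA per cell cannot be told apart.

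Between 4 and 11 weeks part of this machinery fell and part did not pass the test. In KKAy liver, Mcm2, Mcm5, Mcm6, Rrm1 and Rrm2 were lower at 11 than at 4 weeks, by 1.55-fold to 4.01-fold. In C57BL/6J liver, Mcm5 (2.75-fold) and Rrm1 (1.47-fold) were lower. Between strains at 11 weeks, Mcm2, Mcm6 and Rrm2 were lower in KKAy than in C57BL/6J, by 1.52-fold to 4.60-fold. At 4 weeks Mcm6 was 3.55-fold lower and Rrm1 1.58-fold higher in KKAy. Pcna, Tyms, Mcm3, Mcm4 and Mcm7 passed the test in none of these 4 comparisons in this fit, which takes the arrays of a group as unpaired. Of the 10 genes, Rrm2 alone passed the test of whether the strain difference changed with age.

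These counts stand against a large background. For 11 minus 4 weeks in KKAy, 5 of 10 members passed, all 5 lower, where 18.6% of all genes passed in either direction and 10.7% were lower. In C57BL/6J, 2 of 10 passed with age, both lower, against 8.38% of all genes in either direction and 6.48% lower. For KKAy against C57BL/6J at 11 weeks, 3 of 10 passed, all lower, against 21.5% of all genes in either direction and 11.5% lower. At 4 weeks 2 of 10 passed, 1 higher and 1 lower, against 15.4% of all genes, which is close to the background share. For the difference of the strain differences, 1 of 10 passed, against 3.81% of all genes. The median log2 change of the members was -0.54 with age in KKAy and -0.43 in C57BL/6J, where the medians of all genes were 0.02 and 0.05. The median strain difference of the members was -0.40 at 11 weeks and -0.20 at 4 weeks, where those of all genes were 0.00 and 0.01. Scaled to the spike-in controls instead, which moved the median of all genes to 0.37 at 4 weeks, the members' median strain difference at 4 weeks was 0.15, so no direction is given for the group as a whole at that age. With that scaling the 4-week differences of Mcm2, Mcm4, Mcm5, Mcm7, Pcna and Rrm2, none of them called, turned to above 0 (0.07 to 0.32), as did that of Pcna at 11 weeks (0.09).

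**Figure D1:**
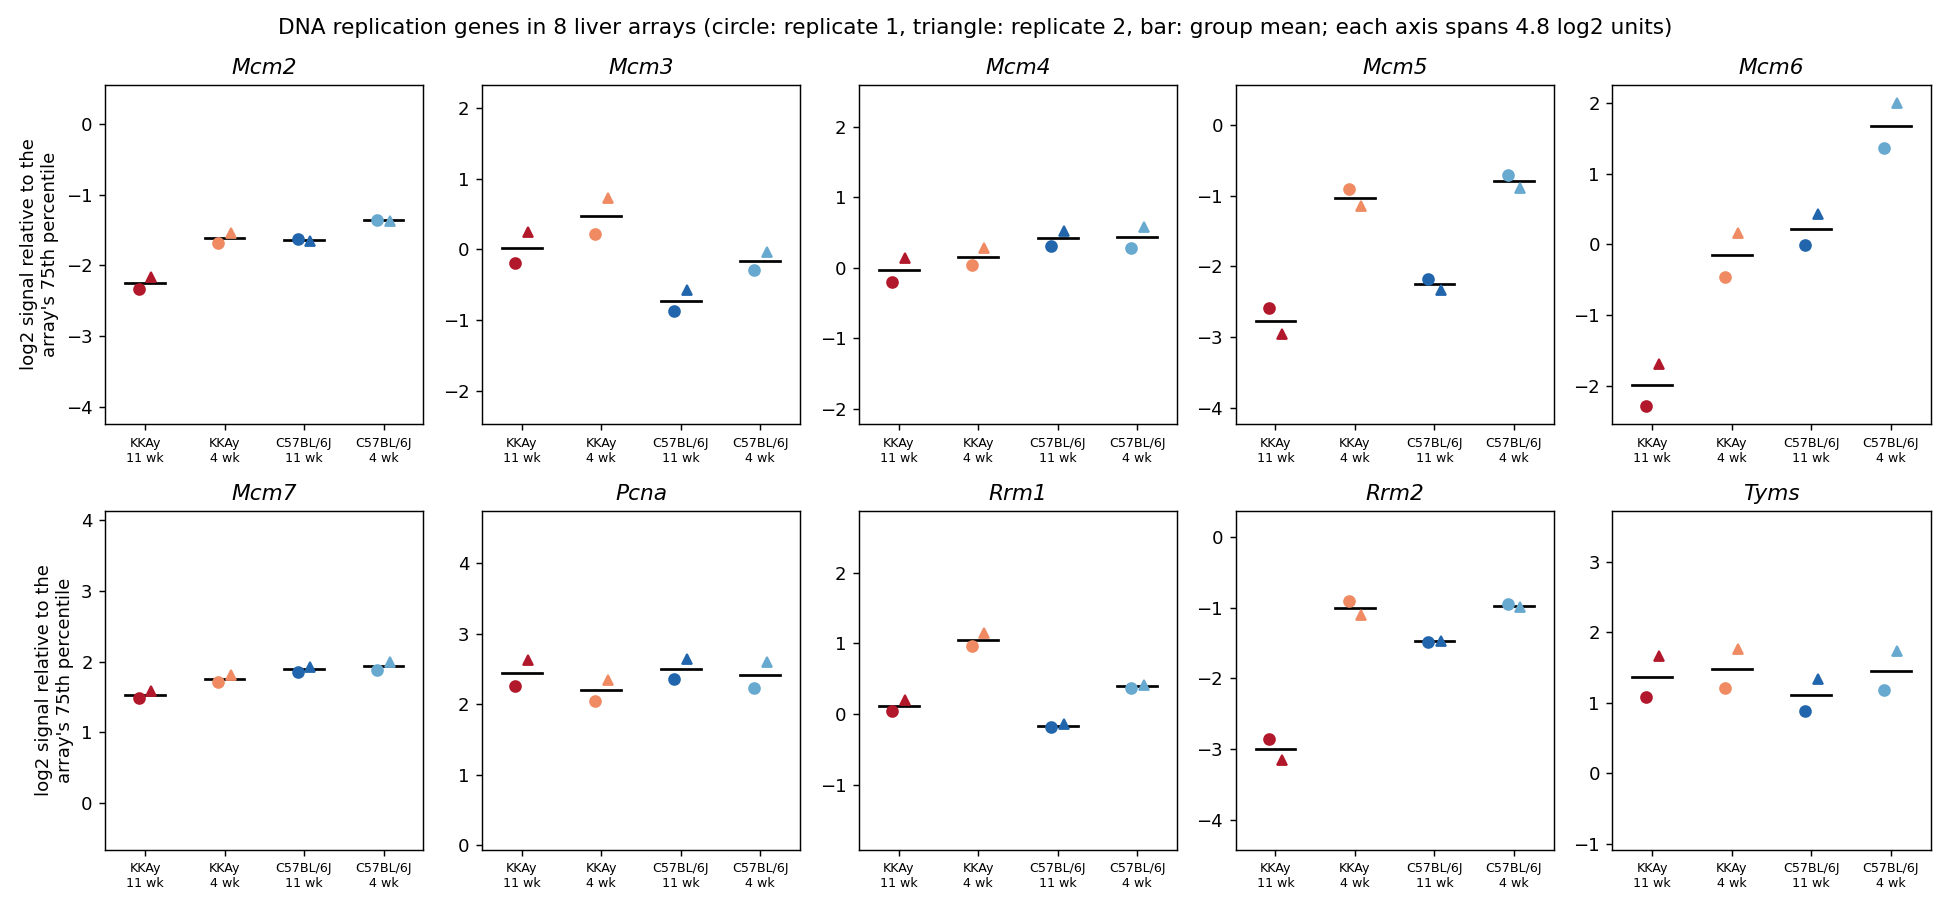
Signal of the 10 genes on each of the 8 arrays, on the log2 scale relative to the array's 75th percentile. Circles are replicate 1, triangles replicate 2, and bars group means of 2 arrays. Mcm5 and Rrm2 are lowest in KKAy at 11 weeks, and Mcm6 runs from -2.29 to 2.00 across the groups. For Pcna and Tyms, groups of the same age or of the same strain overlap.

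The promoters of 4 members are shown because these genes differ in how they moved. Mcm6 and Mcm5 had the widest differences among the MCM genes. Rrm2 had the difference by strain and age, and Pcna none that passed in the fit described. Each line is the 250 bases before the transcription start on the gene's strand, from RefSeq on GRCm38.p6. They lie at chr1:128359706-128359955 (minus strand) for Mcm6, chr8:75109259-75109508 (plus strand) for Mcm5, chr12:24708004-24708253 (plus strand) for Rrm2 and chr2:132253181-132253430 (minus strand) for Pcna. Capitals mark 4 E2F-type words (TTTGGCGC, TTTCCCGC, TTTCGCGC and TTTGCCGC) and the CCAAT box, each searched on both strands.
Mcm6: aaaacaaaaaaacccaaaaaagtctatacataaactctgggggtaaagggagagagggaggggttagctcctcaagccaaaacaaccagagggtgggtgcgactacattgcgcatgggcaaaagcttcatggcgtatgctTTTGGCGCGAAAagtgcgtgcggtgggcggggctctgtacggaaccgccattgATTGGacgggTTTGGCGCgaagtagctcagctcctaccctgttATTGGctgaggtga
Mcm5: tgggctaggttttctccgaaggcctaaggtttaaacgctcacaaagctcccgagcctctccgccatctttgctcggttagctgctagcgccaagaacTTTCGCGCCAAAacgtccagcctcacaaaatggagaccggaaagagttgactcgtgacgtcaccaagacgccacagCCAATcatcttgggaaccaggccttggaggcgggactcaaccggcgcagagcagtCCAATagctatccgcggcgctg
Rrm2: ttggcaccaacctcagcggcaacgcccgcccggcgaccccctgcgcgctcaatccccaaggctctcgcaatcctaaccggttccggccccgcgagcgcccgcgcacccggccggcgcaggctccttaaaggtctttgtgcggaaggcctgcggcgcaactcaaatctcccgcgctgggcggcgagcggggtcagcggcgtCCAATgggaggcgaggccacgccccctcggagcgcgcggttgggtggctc
Pcna: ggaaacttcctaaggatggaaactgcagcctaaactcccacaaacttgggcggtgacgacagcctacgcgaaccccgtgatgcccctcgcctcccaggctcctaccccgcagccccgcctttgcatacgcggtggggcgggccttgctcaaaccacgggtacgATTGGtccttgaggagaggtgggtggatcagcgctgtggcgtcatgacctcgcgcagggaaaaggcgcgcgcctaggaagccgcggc
In windows from 250 bases before to 50 after the start, 9 members had an entry, with 10 promoters since Mcm7 has 2. An E2F-type word was found in 4 of the 10, those of Mcm3, Mcm5, Mcm6 and 1 of Mcm7, against 2.26% of all 32851 promoters in the table. In Mcm5 and Mcm6, 2 such words on opposite strands overlap in 1 run of capitals. CCAAT was found in 9 of the 10, all but that of Tyms, against 37.4% of all promoters. The cell cycle word CHR (TTTGAA or TTCGAA), which does not overlap the capitals here, was found in 2 of the 10, 1 of them of Mcm2 and 1 of Mcm7, against 19.2%. Members with an E2F-type word include Mcm5, called lower with age in both strains. Mcm7, with such words in 1 of its 2 promoters, was not called in the fit described, and Rrm2 has none in its window. A link between these words and the changes was not tested.

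Among the MCM genes, Mcm6, whose only probe lies at chr1:130159147-130159206 on mm8, had the largest strain differences. Whether this probe reads both strains equally well was not tested. Its signal was -2.29 and -1.69 in KKAy at 11 weeks, -0.46 and 0.17 in KKAy at 4 weeks, -0.01 and 0.43 in C57BL/6J at 11 weeks and 1.36 and 2.00 in C57BL/6J at 4 weeks. The younger C57BL/6J group was highest, followed by the older C57BL/6J, the younger KKAy and the older KKAy group, and only the middle pair of these overlapped. Mcm6 was 4.60-fold lower in KKAy at 11 weeks (log2 difference -2.20, SE 0.35, limma adjusted p = 0.00823) and 3.55-fold lower at 4 weeks (-1.83, SE 0.35, adjusted p = 0.0199). With age it was 3.58-fold lower in KKAy (-1.84, SE 0.35, adjusted p = 0.0186). In C57BL/6J the age difference was -1.47 (SE 0.35) and missed the threshold (adjusted p = 0.0618; 0.0495 with quantile and 0.0222 with spike-in scaling), and the 2 age differences did not pass a test of their difference (-0.38, adjusted p = 0.819). Without a filter on dim probes, or on the 4 arrays of the comparison alone, the adjusted p was 0.052 and 0.0536 at 4 weeks and 0.0517 and 0.0689 with age in KKAy. Without C57BL/6J 4-week replicate 2 or KKAy 4-week replicate 1, the adjusted p at 4 weeks was 0.101 and 0.0938. Without C57BL/6J 11-week replicate 2 that at 11 weeks was 0.061, and the age call in KKAy was lost without KKAy 4-week replicate 2 (0.0899) or KKAy 11-week replicate 1 (0.0761).

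Mcm5, with its probe at chr8:78023523-78023583 on mm8, changed with age in both strains. It stood at -2.58 and -2.96 in KKAy at 11 weeks and at -0.91 and -1.15 in KKAy at 4 weeks. In C57BL/6J it was at -2.17 and -2.33 at 11 weeks and at -0.71 and -0.88 at 4 weeks. No 2 of the 4 groups overlapped, and both 11-week groups lay below both 4-week groups. It was 3.34-fold lower at 11 than at 4 weeks in KKAy (log2 difference -1.74, SE 0.17, limma adjusted p = 0.00231) and 2.75-fold lower in C57BL/6J (-1.46, SE 0.17, adjusted p = 0.00578). The call in KKAy held under all 17 alternatives, and that in C57BL/6J was lost without C57BL/6J 11-week replicate 2 (adjusted p = 0.0576). The strain differences were -0.52 at 11 weeks (adjusted p = 0.0884) and -0.23 at 4 weeks (adjusted p = 0.486).

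Mcm2, with its probe at chr6:88849266-88849325 on mm8, had its lowest signal in KKAy at 11 weeks. There it was -2.33 and -2.16, against -1.69 and -1.54 in KKAy at 4 weeks. C57BL/6J had -1.63 and -1.66 at 11 weeks and -1.36 and -1.37 at 4 weeks. KKAy at 11 weeks lay below the other 3 groups, and KKAy at 4 weeks overlapped with C57BL/6J at 11 weeks. The gene was 1.55-fold lower with age in KKAy (-0.64, SE 0.11, limma adjusted p = 0.0143) and 1.52-fold lower than in C57BL/6J at 11 weeks (-0.61, SE 0.11, adjusted p = 0.0137). The age difference of -0.28 in C57BL/6J did not pass (adjusted p = 0.23). The strain call was lost under 7 of 17 alternatives, among them the spike-in scaling (adjusted p = 0.142) and leaving out KKAy 11-week replicate 1 (0.0609) or either C57BL/6J 11-week array (0.0978 and 0.0869). The age call was lost under 6, among them leaving out either KKAy 4-week array (0.0507 and 0.087) or KKAy 11-week replicate 1 (0.0644), and with normexp background correction the 2 differences were -0.42 with age and -0.40 between strains.

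The other MCM subunits passed no test in the fit described. Mcm7 was bright and its arrays lay close together: 1.48 and 1.58 in KKAy at 11 weeks, 1.71 and 1.81 in KKAy at 4 weeks, 1.86 and 1.92 in C57BL/6J at 11 weeks and 1.89 and 1.99 in C57BL/6J at 4 weeks. Every KKAy array lay below every C57BL/6J array, with strain differences of -0.36 at 11 weeks (95% interval -0.61 to -0.10, limma adjusted p = 0.063, and 0.0206 with quantile scaling) and -0.18 at 4 weeks (-0.44 to 0.08, adjusted p = 0.368). Mcm4 was at -0.21 and 0.14 in KKAy at 11 weeks, 0.04 and 0.28 in KKAy at 4 weeks, 0.31 and 0.52 in C57BL/6J at 11 weeks and 0.28 and 0.58 in C57BL/6J at 4 weeks. Its age groups overlapped in both strains, and its age differences were -0.19 in KKAy (-0.64 to 0.26) and -0.02 in C57BL/6J (-0.47 to 0.43). The strain differences of Mcm4 were -0.45 at 11 weeks (adjusted p = 0.147) and -0.28 at 4 weeks (adjusted p = 0.43).

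Mcm3 had probes that disagreed on the strain difference. Its brightest probe, was at -0.19 and 0.24 in KKAy at 11 weeks, 0.22 and 0.73 in KKAy at 4 weeks, -0.88 and -0.58 in C57BL/6J at 11 weeks and -0.29 and -0.03 in C57BL/6J at 4 weeks. The KKAy arrays lay above the C57BL/6J arrays of the same age, with differences of 0.75 at 11 weeks (limma adjusted p = 0.0829) and 0.64 at 4 weeks (adjusted p = 0.16). Scaled to the spike-in controls these were 0.89 and 0.99 and passed the test (adjusted p = 0.042 and 0.0289). The second probe, had strain differences of -0.15 at 11 weeks and -0.17 at 4 weeks, the opposite sign. On age both probes gave like values: -0.45 by the brightest and -0.54 by the second probe in KKAy, and -0.56 by each in C57BL/6J. No strain direction is therefore given for Mcm3. Both probes lie on chromosome 1 in the mm8 annotation of the files, the brightest at chr1:20788189-20788248 and the second within chr1:20790433-20790949.

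**Figure D2:**
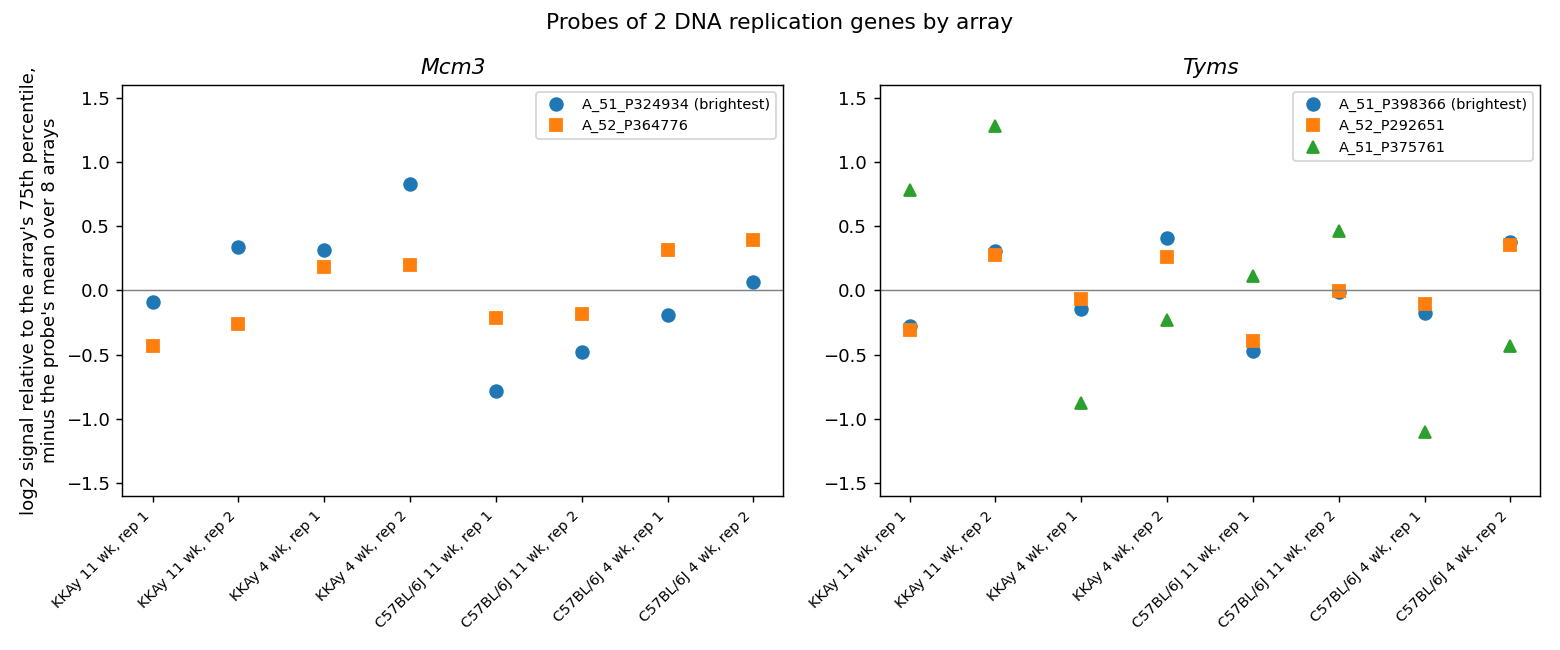
Probes of Mcm3 and Tyms that passed the filter, on each of the 8 arrays, as log2 signal relative to the array's 75th percentile minus the probe's own mean over the arrays. The brightest Mcm3 probe is higher on the KKAy than on the C57BL/6J arrays of the same age and the second probe is not, while 2 Tyms probes run together and the dim one does not.

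Both genes of ribonucleotide reductase changed with age, and Rrm2 differed between strains at 11 weeks by more than any member but Mcm6. Rrm2, the small subunit, with its probe at chr12:25302833-25302889 on mm8, was at -2.86 and -3.15 in KKAy at 11 weeks and at -0.90 and -1.10 in KKAy at 4 weeks. In C57BL/6J it was at -1.49 and -1.47 at 11 weeks and at -0.95 and -0.99 at 4 weeks. The 4-week groups of the strains overlapped, and KKAy at 11 weeks lay more than 1 log2 unit below every other array. Rrm2 was 4.01-fold lower at 11 than at 4 weeks in KKAy (log2 difference -2.00, SE 0.14, limma adjusted p = 0.000717) and 2.88-fold lower in KKAy than in C57BL/6J at 11 weeks (-1.53, SE 0.14, adjusted p = 0.00112). At 4 weeks the strain difference was -0.03 (95% interval -0.37 to 0.30), and the age difference in C57BL/6J was -0.51 (-0.84 to -0.17, adjusted p = 0.0863). The strain difference at 11 weeks minus that at 4 weeks was -1.49 (SE 0.19, adjusted p = 0.0171). The first 2 calls held under all 17 alternatives, with smaller differences of -1.25 and -0.89 after normexp background correction, which gave -0.89 for the third (adjusted p = 0.0357). The last was lost under 7 of 16, without a filter on dim probes (adjusted p = 0.0823) and on leaving out any 1 of 6 arrays (adjusted p = 0.0592 to 0.107).

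Rrm1, the large subunit, with its probe at chr7:102342530-102342590 on mm8, was lower with age in both strains and, at 4 weeks, higher in KKAy. It was at 0.04 and 0.20 in KKAy at 11 weeks, 0.97 and 1.14 in KKAy at 4 weeks, -0.19 and -0.14 in C57BL/6J at 11 weeks and 0.37 and 0.41 in C57BL/6J at 4 weeks. No 2 groups overlapped, and KKAy lay above C57BL/6J at each age. With age it was 1.91-fold lower in KKAy (-0.94, SE 0.11, limma adjusted p = 0.00441) and 1.47-fold lower in C57BL/6J (-0.55, SE 0.11, adjusted p = 0.039). At 4 weeks it was 1.58-fold higher in KKAy (0.66, SE 0.11, adjusted p = 0.0132), and at 11 weeks the difference was 0.28 (adjusted p = 0.14). The age call in C57BL/6J was fragile, lost under 12 of 17 alternatives and without any 1 of the 8 arrays (adjusted p = 0.0536 to 0.241), while that in KKAy was lost in 1, a fit to its own 4 arrays (0.0641). The 4-week strain call was lost without a filter on dim probes (0.0599), on its own 4 arrays (0.0748), and without either C57BL/6J 4-week array (0.0827 and 0.0726) or KKAy 4-week replicate 2 (0.0849), and the difference was 1.02 when scaled to the spike-in controls.

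For the clamp Pcna and the synthase Tyms, groups of the same age or of the same strain overlapped. Pcna was at 2.26 and 2.63 in KKAy at 11 weeks, 2.04 and 2.35 in KKAy at 4 weeks, 2.35 and 2.64 in C57BL/6J at 11 weeks and 2.24 and 2.60 in C57BL/6J at 4 weeks. Its age difference was 0.25 in KKAy (95% interval -0.28 to 0.77) and 0.07 in C57BL/6J (-0.45 to 0.60). Its strain difference was -0.05 at 11 weeks (-0.58 to 0.48) and -0.22 at 4 weeks (-0.75 to 0.30). Those intervals leave out, for age, a fall of the size measured for Mcm5. Tyms was at 1.08 and 1.66 in KKAy at 11 weeks, 1.21 and 1.76 in KKAy at 4 weeks, 0.88 and 1.34 in C57BL/6J at 11 weeks and 1.18 and 1.73 in C57BL/6J at 4 weeks. Its 4 differences ran from -0.35 with age in C57BL/6J (-1.15 to 0.45) to 0.26 between strains at 11 weeks (-0.54 to 1.06). None of them passed in the fit described, which takes the arrays of a group as unpaired. With the replicate number as a block, Pcna and Tyms each passed in 2 of the 4 comparisons, where 33.9% to 54.9% of all genes passed. A second Tyms probe gave -0.32 and 0.18 for the same 2 comparisons. A further, dim probe that was above background on 5 of 8 arrays gave age differences of 1.58 in KKAy and 1.05 in C57BL/6J.

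Part of the spread within groups was shared between them. Replicate 2 was above replicate 1 in all 4 groups for Mcm3, Mcm4, Mcm6, Mcm7, Pcna, Rrm1 and Tyms. For Mcm5 it was below in all 4. The gaps of Mcm6 were -0.59 in KKAy at 11 weeks, -0.63 in KKAy at 4 weeks, -0.45 in C57BL/6J at 11 weeks and -0.64 in C57BL/6J at 4 weeks (replicate 1 minus replicate 2). Those of Tyms were -0.59, -0.56, -0.46 and -0.55 in the same order of groups. Both genes thus had SDs of 0.32 to 0.45 within groups, where Mcm7 had 0.045 to 0.077.

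**Figure D3:**
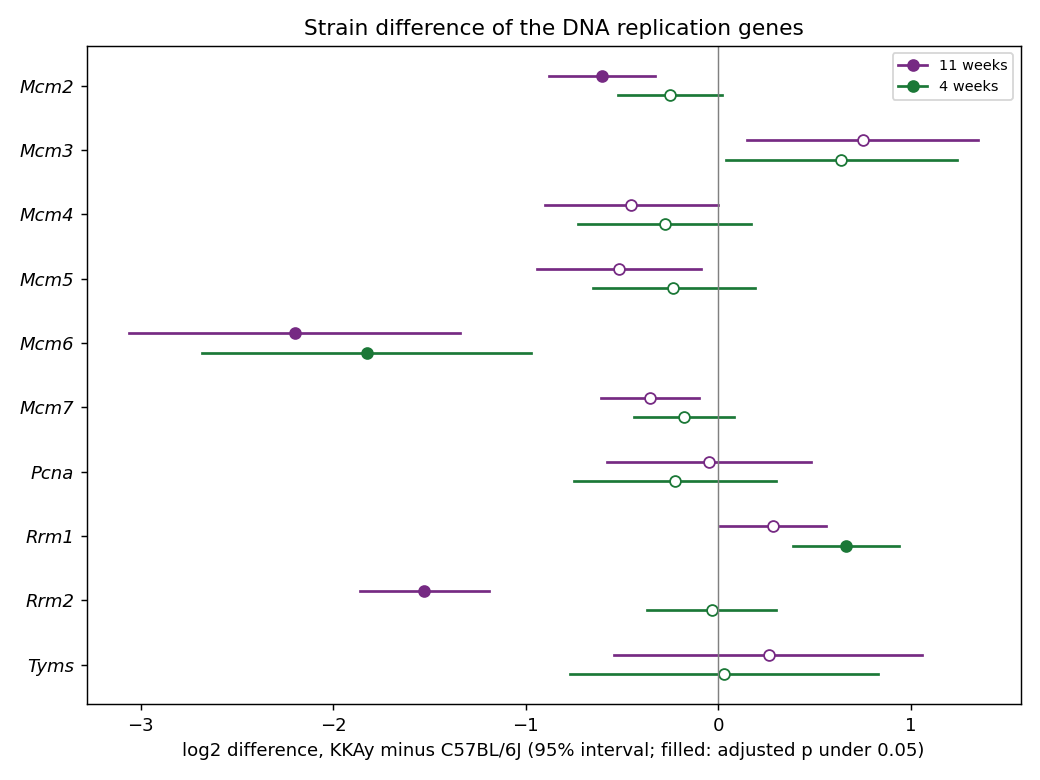
Log2 difference of KKAy minus C57BL/6J for each gene at 11 weeks (purple, upper of each pair) and 4 weeks (green, lower), with 95% intervals from limma over 8 arrays; filled points passed at an adjusted p under 0.05. Mcm6 passed at both ages, Rrm2 and Mcm2 at 11 weeks and Rrm1 at 4 weeks.

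**Figure D4:**
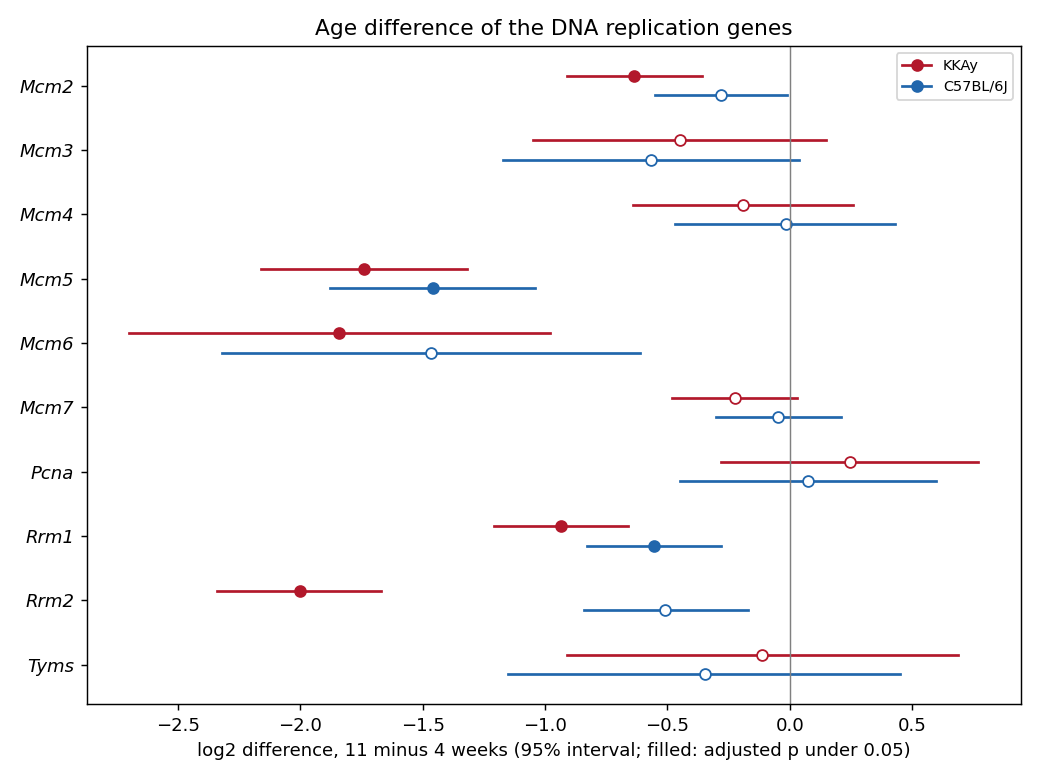
Log2 difference of 11 minus 4 weeks for each gene in KKAy (red, upper of each pair) and C57BL/6J (blue, lower), with 95% intervals from limma over 8 arrays; filled points passed at an adjusted p under 0.05. Mcm5 and Rrm1 passed in both strains, and Mcm2, Mcm6 and Rrm2 in KKAy.

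In each comparison most other genes of DNA replication did not pass the test, which also held for all genes tested. The lists held 75 such genes of origin licensing and firing, of polymerases and fork enzymes, of nucleotide supply and of S-phase chromatin, and 69 were tested. With age, 4 were higher and 11 lower in KKAy (median -0.01), and 0 were higher and 12 lower in C57BL/6J (median -0.09). Of all genes, 7.89% were higher and 10.7% lower with age in KKAy, and 1.89% higher and 6.48% lower in C57BL/6J. Between strains, 8 of the 69 were higher and 3 lower in KKAy at 11 weeks (median 0.02), and 1 was higher and 4 lower at 4 weeks (median -0.04). The shares over all genes were 9.95% higher and 11.5% lower at 11 weeks, and 6.41% higher and 9% lower at 4 weeks. Scaled to the spike-in controls, 6 of the 69 were higher and 2 lower at 4 weeks, and 1 was higher and 16 lower with age in KKAy. With normexp background correction the calls numbered 7 with age in KKAy, 4 in C57BL/6J, 7 between strains at 11 weeks and 2 at 4 weeks. No gene of the 69 passed the test of the difference between strain differences, against 3.81% of all genes. That the 10 members differ from these 69 was not tested. Of 42 calls named below for genes outside the members, mitosis and S-phase control included, 12 held under every alternative that could be fitted, none turned its sign, and 7 were lost under most alternatives: Rfc5, Atad2, Orc3, Umps, Pole2, Wdhd1 in C57BL/6J, and E2f7 for the difference of strain differences. With normexp background correction 12 of the 42 values moved by over 1.5 times.

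Among origin genes, which place and fire the MCM helicase, 1 of 19 was higher and 2 lower with age in KKAy, and 3 of 19 were lower in C57BL/6J. Mcm10, a helicase activator, was higher at 11 weeks in KKAy (1.66, SE 0.30, limma adjusted p = 0.0157). Its mean signal there was 4.94, against 3.29 in KKAy at 4 weeks, brighter than any member. Whether its probe reads Mcm10 alone was not tested. Orc3, an origin recognition subunit, was lower with age in KKAy (-0.51, adjusted p = 0.0277), a call lost under 11 of 17 alternatives. In C57BL/6J, Gins2, a part of the active helicase, fell by 1.39 and Dbf4, the activator of the Cdc7 kinase, by 1.38 (adjusted p = 0.00546 and 0.00702), and with normexp the value of Gins2 was -0.60 and not called. Between strains at 11 weeks, Dbf4 (1.14) and Gins2 (0.89) were higher in KKAy (adjusted p = 0.00699 and 0.0129), the opposite sign to Mcm6, and with normexp Gins2 was at 0.46 and not called. At 4 weeks Cdc6, the loader of the helicase, was not well above background in KKAy and was at least 1.16-fold lower there than in C57BL/6J (adjusted p = 0.0231), while normexp gave a difference of -0.02. A bound of this kind sets the brighter group's mean against the dimmer group's own signal or the lowest signal well above background on each array, whichever is higher.

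Polymerases and fork enzymes had 2 of 29 higher and 5 lower with age in KKAy and 3 of 29 lower in C57BL/6J. Wdhd1, which links helicase and polymerase, was lower at 11 weeks in KKAy (-0.69) and in C57BL/6J (-0.56), with limma adjusted p = 0.00805 and 0.0264. With normexp these were -0.31 and -0.13, neither called, and the call in C57BL/6J was lost under 11 of 17 alternatives. Pold2, a subunit of polymerase delta, was higher with age in KKAy (0.64, adjusted p = 0.0165), and Pole2, of polymerase epsilon, fell by 1.20 in C57BL/6J (adjusted p = 0.0316), a call lost under 9 of 16 alternatives, with a value of -0.10 after normexp. In KKAy against C57BL/6J at 11 weeks, 4 of 29 were higher and 2 lower, with Pold2 at 0.85 and the flap nuclease Fen1 at 0.63 (adjusted p = 0.00518 and 0.0121). At 4 weeks 1 was higher and 2 lower in KKAy, with Rnaseh2a, which removes RNA from DNA, at -0.74 and the clamp loader subunit Rfc5 at -0.65 (adjusted p = 0.00464 and 0.0467). Scaled to the spike-in controls, 3 of the 29 were higher and 0 lower at 4 weeks, and Rnaseh2a (-0.39) and Rfc5 (-0.30) were no longer called. Rnaseh2a was at -0.11 by the mean of its probes, and the call of Rfc5 was lost under 12 of 17 alternatives.

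In the nucleotide supply list, 1 of 14 was higher and 1 lower with age in KKAy: the mitochondrial thymidine kinase Tk2 (0.58) and Umps (-0.57), of pyrimidine synthesis. The call of Umps was lost under 10 of 17 alternatives, and Tk2 was at 0.37 and not called with spike-in scaling. In C57BL/6J, 2 of 14 were lower: Samhd1, which breaks down deoxyribonucleotides, at -0.91 and Tk1, the S-phase thymidine kinase, at -1.11 (limma adjusted p = 0.00673 and 0.0226). Tk1 was at 1.11 in KKAy against C57BL/6J at 11 weeks (adjusted p = 0.0109), opposite in sign to Rrm2. Samhd1 was at -1.05 at 4 weeks (adjusted p = 0.00273). Of the 7 S-phase chromatin genes, 3 were lower with age in KKAy and 4 in C57BL/6J. The histone chaperone Asf1b fell by 1.65 in KKAy and by 1.55 in C57BL/6J (adjusted p = 0.000831 and 0.00168). Uhrf1, which carries DNA methylation through replication, was at least 3.46-fold lower at 11 weeks in KKAy, where neither array was well above background, and fell by 2.67 in C57BL/6J, where 1 of 2 arrays at 11 weeks was (adjusted p = 0.00471 and 0.00411). With normexp Uhrf1 was at -0.42 in KKAy and -0.80 in C57BL/6J, neither called, and Asf1b in C57BL/6J was at -0.97 and called. Atad2 was the 1 gene of this list that passed between strains at 11 weeks (0.39, adjusted p = 0.0402), a call lost under 12 of 17 alternatives.

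Genes of mitosis were lower at 11 weeks almost throughout. Of 12 mitosis genes, 11 were lower at 11 than at 4 weeks in each strain, with a median of -3.11 in KKAy and -2.97 in C57BL/6J. With genes that were not well above background at 11 weeks set to their bound (3 in KKAy and 2 in C57BL/6J), the medians were -2.75 and -2.90. Mki67, the proliferation marker, fell by 3.06 in KKAy, it fell by 2.99 in C57BL/6J, and Plk1, a mitotic kinase, fell by 3.47 in KKAy (limma adjusted p = 9.19e-05, 0.000239 and 0.000106). Bub1, a spindle checkpoint kinase, was at least 5.47-fold lower at 11 weeks in C57BL/6J, where it was not well above background (adjusted p = 0.000239), and normexp gave -0.84 (adjusted p = 0.0499). Ccna2, the cyclin of S phase, was at -2.61 and -2.64 in KKAy at 11 weeks and at 0.71 and 0.61 in KKAy at 4 weeks, and so fell by 3.28 (adjusted p = 8.77e-05). In C57BL/6J it fell by 3.19 (adjusted p = 0.000239) and E2f7, a repressor of E2F targets, by 1.52 (adjusted p = 0.00165), though the value of E2f7 was -0.30 and not called with normexp. The summed signal of the mitosis list, with the array's 75th percentile set to 100, was 227 to 293 in KKAy at 11 weeks, 1780 to 2360 in KKAy at 4 weeks, 195 to 219 in C57BL/6J at 11 weeks and 1410 to 1760 in C57BL/6J at 4 weeks.

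Between strains, 1 of 12 mitosis genes was higher in KKAy at each age, in both cases the cyclin Ccnb2 (1.08 at 11 weeks and 1.11 at 4 weeks, limma adjusted p = 0.0331 and 0.0375). Of 19 regulators of S phase, 3 were higher and 3 lower in KKAy at 11 weeks, and 1 higher and 2 lower at 4 weeks. At 11 weeks 0 were higher and 2 lower with normexp, without a filter on dim probes or on the 4 arrays of the comparison alone. At 4 weeks spike-in scaling gave 2 higher and 1 lower. With age, 5 of the 19 were lower in KKAy and 3 in C57BL/6J, and none was higher. Cdkn1a, an inhibitor of cyclin-dependent kinases and a partner of PCNA, was at -0.81 and -1.73 in KKAy at 11 weeks, against 2.29 and 1.97 in C57BL/6J (-3.40, adjusted p = 0.00197). At 4 weeks its difference was -1.81 (adjusted p = 0.0228). Ccnd1, the cyclin of G1 phase, was lower in KKAy at 11 weeks (-1.53, adjusted p = 0.000363) and fell by 1.91 with age in KKAy (adjusted p = 0.000287). Its strain difference changed with age by -1.50 (adjusted p = 0.00696), as did that of Rrm2 (-1.49), and for E2f7, above background on 1 of 2 arrays in KKAy at 11 weeks, the change was 0.90 (adjusted p = 0.0436), a call lost under 11 of 15 alternatives. Ccne1, the cyclin of S-phase entry, was at 1.54 in KKAy at 4 weeks (adjusted p = 0.0207).

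**Figure D5:**
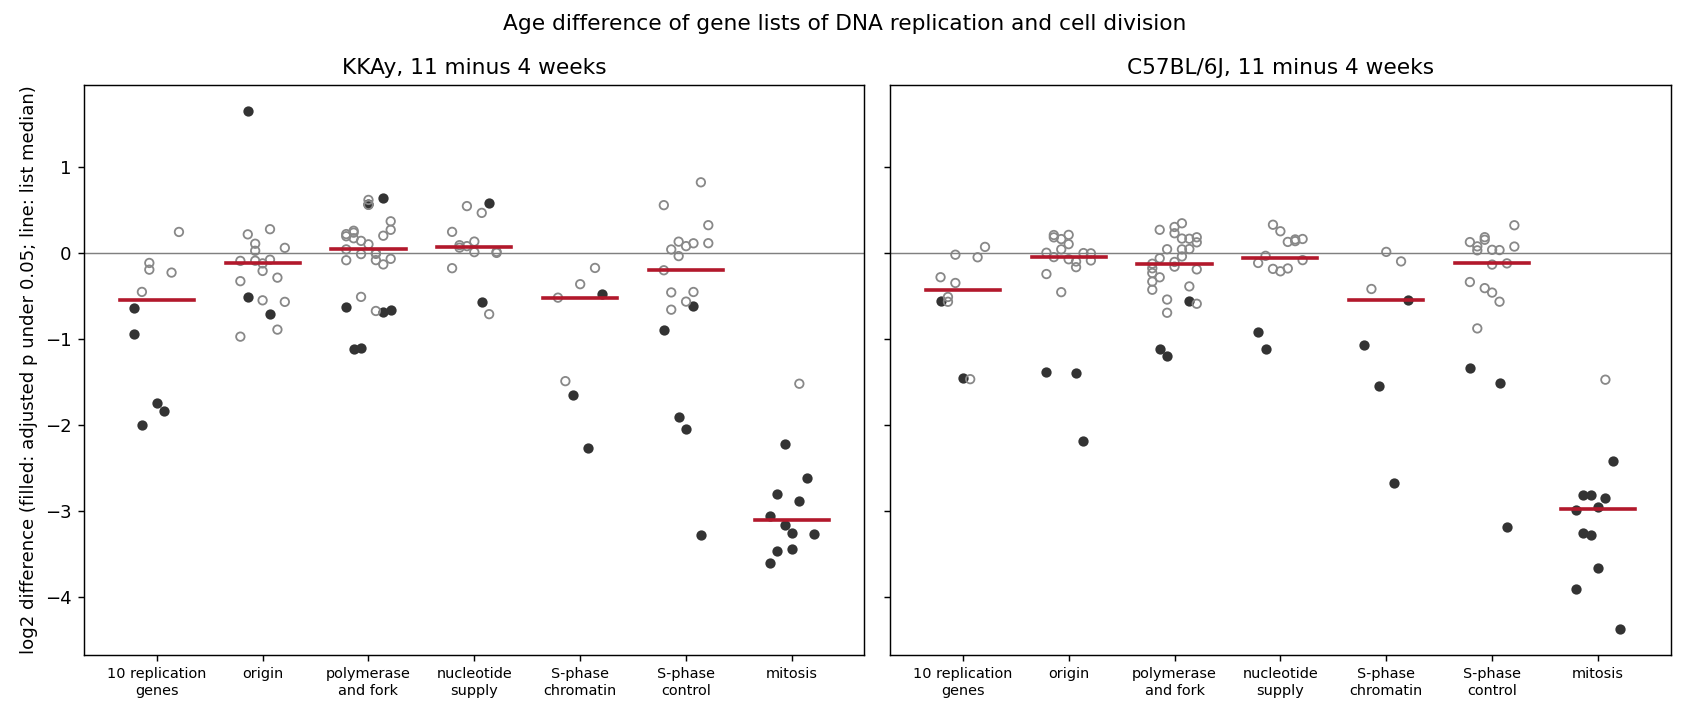
Log2 difference of 11 minus 4 weeks for each tested gene of 7 lists, in KKAy (left) and C57BL/6J (right). Filled points passed at a limma adjusted p under 0.05 and red lines are list medians, which lie at -0.54 and -0.43 for the 10 replication genes and at -3.11 and -2.97 for mitosis.

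Markers of other cell types moved in the same comparisons. Of 12 Kupffer cell and macrophage markers, all well above background on all 8 arrays, 8 were lower with age in KKAy and 11 in C57BL/6J, and 7 were lower in KKAy at 11 weeks and 11 at 4 weeks. Their summed signal was 4720 to 4940 in KKAy at 11 weeks, 7630 to 8470 in KKAy at 4 weeks, 7900 to 8410 in C57BL/6J at 11 weeks and 18700 to 21600 in C57BL/6J at 4 weeks. This sum was highest in C57BL/6J at 4 weeks and lowest in KKAy at 11 weeks, and the middle groups overlapped. Of 13 lymphocyte markers, 8 were lower with age in KKAy and 7 in C57BL/6J, and 7 were lower in KKAy at 11 weeks and 9 at 4 weeks. Their sum was 102 to 111 in KKAy at 11 weeks, 170 to 186 in KKAy at 4 weeks, 161 to 165 in C57BL/6J at 11 weeks and 390 to 430 in C57BL/6J at 4 weeks. No defining marker of either list was at background on all arrays, though Cd3g, Cd8a, Cd79a, Gzma and Gzmb were not above it on all 8.

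Of 8 stellate cell markers, 7 were lower with age in KKAy and 5 were lower and 1 higher in KKAy at 11 weeks, with sums of 2430 to 3060 in KKAy at 11 weeks, 4840 to 5650 in KKAy at 4 weeks, 4460 to 4900 in C57BL/6J at 11 weeks and 5810 to 6650 in C57BL/6J at 4 weeks. With age in C57BL/6J 3 stellate cell markers were lower, and 2 were lower in KKAy at 4 weeks. Of 6 erythroid markers tested, 4 were lower and 1 higher with age in KKAy, and 2 lower and 1 higher in C57BL/6J. Between strains, 2 were higher and 1 lower in KKAy at 11 weeks, and 3 were higher at 4 weeks. The erythroid sums were 9530 to 10700 in KKAy at 11 weeks, 16600 to 18500 in KKAy at 4 weeks, 5860 to 6260 in C57BL/6J at 11 weeks and 10200 to 11500 in C57BL/6J at 4 weeks. Of 8 endothelial markers, 4 were lower with age in KKAy and 1 in C57BL/6J. Between strains, 2 were higher and 2 lower in KKAy at 11 weeks, and 2 higher and 1 lower at 4 weeks. Endothelial sums were 4100 to 4140 in KKAy at 11 weeks, 5490 to 5660 in KKAy at 4 weeks, 3270 to 3360 in C57BL/6J at 11 weeks and 3910 to 3930 in C57BL/6J at 4 weeks. Of 4 neutrophil markers tested, 2 were higher with age in KKAy and 0 in C57BL/6J, and 2 were higher in KKAy at 11 weeks and 1 at 4 weeks. Neutrophil sums were 571 to 796 in KKAy at 11 weeks, 286 to 386 in KKAy at 4 weeks, 129 to 163 in C57BL/6J at 11 weeks and 187 to 249 in C57BL/6J at 4 weeks. Of 5 cholangiocyte markers, 1 was lower in KKAy at each age and 1 higher with age in C57BL/6J. Among 10 hepatocyte markers tested, 1 was higher and 2 lower in KKAy at 11 weeks. With age in KKAy 1 was higher and 1 lower, and none passed between strains at 4 weeks or with age in C57BL/6J. Hepatocyte markers summed to 305000 to 349000 in KKAy at 11 weeks, 262000 to 308000 in KKAy at 4 weeks, 308000 to 310000 in C57BL/6J at 11 weeks and 216000 to 285000 in C57BL/6J at 4 weeks. The part of any of these cell types in the changes of the replication genes was not tested.

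As a group, the members' mean profile over the 8 arrays was lowest in KKAy at 11 weeks. Centred on each gene's own mean, it was -0.65 and -0.44 in KKAy at 11 weeks, 0.13 and 0.35 in KKAy at 4 weeks, -0.19 and -0.02 in C57BL/6J at 11 weeks and 0.31 and 0.51 in C57BL/6J at 4 weeks. The 11-week groups lay below the 4-week groups, and the 4-week groups overlapped. Mcm2 was closest to this mean, with a root mean square difference of 0.138 log2 units over 8 arrays, and Mcm6 farthest, with 1.009. Of genes outside the set, the 6 nearest were Fhod1 (0.035), an actin-organising formin, Arhgap45 (0.061), Mrc1 (0.062), the mannose receptor, Pdlim2 (0.066), a PDZ and LIM domain protein, St3gal2 (0.068), a sialyltransferase, and Adm (0.073), the peptide hormone adrenomedullin. The median over all genes was 0.483. Of the members themselves, Mcm3, Mcm5, Mcm6 and Rrm2 lay farther from their mean than that.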

How the data were processed

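Total RNA from the liver of 8 samples was measured on 8 one-colour Agilent arrays of 43379 spots for 41174 probes. Spot intensity is the processed signal that the authors extracted with Agilent Feature Extraction 9.5.1.1, per the submitters' processing notes and the file headers, with background subtracted and no scaling between arrays. The deposited value table holds log2 values that equal the log2 processed signal minus 1 constant per array within 0.001 for 99.6% of probes; its column medians lay between -3.96 and -3.67 and its 75th percentile is at 0, so its scale and direction were settled from the data. A tool not given in the sources used here made that shift. The table served as an alternative.

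Spots flagged as outliers were left out (59 to 89 per array), no spot was saturated (0), repeated spots were averaged, and the 75th percentile of log2 signal on an array was subtracted from its values. A probe was kept if both arrays of some group showed it well above background (25319 probes), and the brightest stood for its gene (17049 genes). One gene had no value in the C57BL/6J 4-week group, because its spots were flagged, and was left out of the comparisons with it. Names came from a RefSeq table (GRCm38.p6) by accession (24375 probes), symbol (6301) or older symbol (2426), and 8072 probes kept the name in the files. Probe positions are on mm8, per the file headers.

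Groups were taken from the labels. The fit used limma 3.58.1 (R 4.3.3) on all 8 arrays, with 4 residual and 1.926 prior degrees of freedom, and genes were called at 0.05 after Benjamini-Hochberg adjustment over all genes. The procedure was tested on simulated data with independent noise on each array. That test did not cover deviations shared by arrays of the same replicate number. The alternatives were normexp background correction (offset 50), quantile and spike-in scaling (7 control probes), 2 other filters, the deposited table, the mean of a gene's probes, the 4 arrays of a comparison alone, a replicate block, and leaving out each array. The members, gene lists and tests were chosen with earlier results of these data known. Genes named besides the 10 members are, per comparison and list of replication or division genes, the 2 with the smallest adjusted p among those that passed, and the 6 genes nearest to the members' mean profile by root mean square difference. Figures were drawn with matplotlib 3.10.9.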

Additional observations from a re-analysis of the deposited data

Results flagged for a closer look

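One result among the replication genes differed between groups under the same contrast. The strain difference of Rrm2, the small subunit of ribonucleotide reductase, was -1.53 at 11 weeks and -0.03 at 4 weeks on the log2 scale, and the difference between them was -1.49 (SE 0.19, limma adjusted p = 0.0171 over all genes). The call was lost under 7 of 16 alternatives, among them leaving out any 1 of 6 arrays (adjusted p = 0.0592 to 0.107), and the value was -0.89 with normexp background correction (adjusted p = 0.0357). On the arrays, KKAy at 11 weeks lay below the other groups (-2.86 and -3.15, against -1.49 and -1.47 in C57BL/6J at 11 weeks), while the 4-week groups overlapped. Samples of 2 arrays are too few for a check of single arrays that stand apart. Because slide and age coincide, an effect of slide that differs between positions and one of age that differs between strains cannot be told apart.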

How the results depend on the processing

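No result changed sign with its call, and quantile scaling, the stricter filter, the deposited table and the mean of probes kept every count of calls among the members and among all genes within 1.5 times. Members that passed numbered 2 (KKAy against C57BL/6J at 4 weeks), 3 (the same at 11 weeks), 2 (11 minus 4 weeks in C57BL/6J), 5 (in KKAy) and 1 (difference of strain differences). Without a filter on dim probes, which adds genes to the adjustment, they were 0 at 4 weeks, 1 with age in C57BL/6J, 3 with age in KKAy and 0 for the last. On the 4 arrays of a comparison alone they were 0 at 4 weeks, 1 in C57BL/6J and 2 in KKAy, and with normexp 1 in C57BL/6J. Calls over all genes numbered 2626, 3660, 1428, 3176 and 650 in that order. They were 1505, 2126, 700, 1463 and 142 without the filter. With normexp they were 2350 at 11 weeks, 662 in C57BL/6J, 1884 in KKAy and 323 for the last, and on 4 arrays alone 1404 at 4 weeks, 2120 at 11 weeks and 742 in KKAy. Spike-in scaling subtracts another constant from each array, so within a comparison it moves the difference of every gene by the same amount. The causes of the changes in counts, and in medians under the other settings, were not tested. Spike-in scaling gave 416 for the last, and medians of the members of 0.15 at 4 weeks, -0.75 in KKAy and -0.45 for the last. It brought the median of all genes to 0.37, 0.13, 0.06, -0.19 and -0.21 (0.01, 0.00, 0.05, 0.02 and 0.01 with the 75th percentile), with 75.8%, 60.7%, 19.6%, 19.4% and 36.1% of calls higher, where the 75th percentile gave 41.6%, 46.4%, 22.6%, 42.4% and 54.0%. Leaving out 1 array, members called ranged 0 to 2, 1 to 3, 0 to 1, 3 to 5 and 0 to 1, all genes called 1317 to 2588, 1475 to 3069, 461 to 1330, 1337 to 2397 and 62 to 295, and the members' median -0.24 to -0.09, -0.41 to -0.29, -0.55 to -0.35, -0.71 to -0.38 and -0.29 to -0.09. Of the 69 other replication genes, 5 (at 4 weeks), 11 (at 11 weeks), 12 (C57BL/6J) and 15 (KKAy) passed, against 2, 5, 7 and 4 without the filter, and 3, 4, 10 and 2 on 4 arrays alone. All 10 members were well above background on all 8 arrays.

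Arrays of the same replicate number deviated together across groups (r = 0.53 to 0.68 over genes in 6 pairs of groups). Each comparison has 2 such pairs, and the labels tie no litter, batch or day to the numbers, so the main fit took no pairing. The numbers do go with array position: replicate 1 was at position 1 or 3 and replicate 2 at position 2 or 4. In every group the 75th percentile of signal was higher on replicate 1. What the same-numbered arrays share was not tested. With the replicate number as a block, 8, 9, 7, 9 and 3 of the 10 members passed, and 7474, 9368, 5771, 9100 and 5288 of all genes. The members that passed in none of the 4 strain and age comparisons without it passed with it in 4 (Mcm3), 3 (Mcm4), 3 (Mcm7), 2 (Pcna) and 2 (Tyms) of them.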
